A study of Homo sapiens with 9 samples.

Results

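The replication-dependent histone genes were followed by RNA-seq in CA46 cells, an established human Burkitt lymphoma B cell line, after a virus carried an shRNA against MYC into them. The genes were chosen by name, as every row of the expression tables with a single symbol beginning HIST1H, HIST2H, HIST3H or HIST4H, which gave 65 gene symbols (67 rows) of 23228. They divide into 6 genes of the linker histone H1, 16 of H2A, 18 of H2B, 10 of H3 and 15 of H4. Of the 65, 38 had a mean of at least 1 FPKM (fragments per kilobase of a gene, relative to library size) over the 4 libraries, as did 11177 gene symbols in all; 14 were detected below that level, and 13 were listed at 0 in every library. RefSeq types 62 of the 65 as coding and 3 (HIST2H2BA, HIST2H2BC and HIST1H2APS1) as pseudogenes.

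The study compared 4 groups with 1 RNA library each. The control groups received virus with a non-targeting sequence (NTC) and the knockdown groups received virus with Myc shRNA, for 48 h by the series' design text. Within each virus, cells were exposed to PBS or to 10 mM dimethyl succinate (DMS, a cell-permeable ester of succinate) for the final 20 h. Every group shares the same cell line and a viral infection, no uninfected cells were analysed here, and the labels name neither the shRNA sequence nor a second shRNA. Values of the 4 libraries are given below in the fixed order control in PBS, control in DMS, knockdown in PBS, knockdown in DMS.

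Histone genes of this kind lie in clusters, lack introns in most cases, and are transcribed mainly in S phase, when new DNA has to be packed into nucleosomes. A core nucleosome is built from an H3 and H4 tetramer and H2A and H2B dimers, and H1 binds the DNA that enters and leaves it. Their main mRNAs end in a stem-loop held by the stem-loop binding protein SLBP and carry no poly(A) tail, whereas some members also give polyadenylated transcripts, which are known from differentiated or non-dividing cells.

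The promoters of the members with the 3 highest and the 3 lowest knockdown ratios in PBS, among those with a mean of at least 5 FPKM and a RefSeq entry, are shown so that the promoters at both ends of the range can be read side by side. They come from RefSeq on GRCh38.p14 and run from 250 bases before the start site to 50 bases after it, 5′ to 3′ on the gene's strand. Capitals mark TATAAA (the TATA box), CCAAT (the CCAAT box) and ATTTGCAT (the octamer known from H2B promoters), each searched on both strands.
HIST1H2AC promoter, chr6:26123922-26124221, plus strand: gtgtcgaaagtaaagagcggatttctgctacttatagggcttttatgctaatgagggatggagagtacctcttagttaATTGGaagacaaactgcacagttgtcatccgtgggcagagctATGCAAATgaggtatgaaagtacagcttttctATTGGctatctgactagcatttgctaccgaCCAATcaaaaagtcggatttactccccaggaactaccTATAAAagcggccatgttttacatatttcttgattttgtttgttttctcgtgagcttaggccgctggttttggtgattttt
HIST1H2BC promoter, chr6:26123877-26124176, minus strand: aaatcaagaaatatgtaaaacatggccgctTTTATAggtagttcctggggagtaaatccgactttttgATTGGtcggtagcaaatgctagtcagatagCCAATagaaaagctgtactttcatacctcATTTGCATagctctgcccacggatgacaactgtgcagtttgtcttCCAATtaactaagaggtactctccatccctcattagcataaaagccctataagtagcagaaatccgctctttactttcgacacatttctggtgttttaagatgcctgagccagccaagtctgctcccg
HIST1H4E promoter, chr6:26204360-26204659, plus strand: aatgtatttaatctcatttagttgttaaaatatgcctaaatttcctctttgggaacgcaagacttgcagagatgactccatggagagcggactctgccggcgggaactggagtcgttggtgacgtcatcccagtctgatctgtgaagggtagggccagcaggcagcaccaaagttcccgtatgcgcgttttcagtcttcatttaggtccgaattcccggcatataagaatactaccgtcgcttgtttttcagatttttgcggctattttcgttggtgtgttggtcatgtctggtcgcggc
HIST1H2AJ promoter, chr6:27814728-27815027, minus strand: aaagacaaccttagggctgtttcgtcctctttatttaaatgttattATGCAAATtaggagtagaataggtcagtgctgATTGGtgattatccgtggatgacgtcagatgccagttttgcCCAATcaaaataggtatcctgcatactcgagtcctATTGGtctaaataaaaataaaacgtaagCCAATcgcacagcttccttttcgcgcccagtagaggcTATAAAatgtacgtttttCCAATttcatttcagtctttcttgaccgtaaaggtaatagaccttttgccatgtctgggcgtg
HIST1H4I promoter, chr6:27139032-27139331, plus strand: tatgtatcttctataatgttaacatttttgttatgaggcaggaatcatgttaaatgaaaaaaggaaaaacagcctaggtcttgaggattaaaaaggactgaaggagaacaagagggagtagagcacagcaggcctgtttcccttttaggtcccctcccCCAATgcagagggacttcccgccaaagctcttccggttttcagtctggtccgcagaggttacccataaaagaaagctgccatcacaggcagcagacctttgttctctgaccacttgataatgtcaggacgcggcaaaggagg
HIST1H3G promoter, chr6:26271364-26271663, minus strand: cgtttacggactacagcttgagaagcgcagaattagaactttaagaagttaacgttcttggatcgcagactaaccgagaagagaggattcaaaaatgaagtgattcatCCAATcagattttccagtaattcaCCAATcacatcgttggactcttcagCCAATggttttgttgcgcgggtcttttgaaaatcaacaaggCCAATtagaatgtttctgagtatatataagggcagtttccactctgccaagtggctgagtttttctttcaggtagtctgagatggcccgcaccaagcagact
The first pair lies head to head, with 246 bases between the start sites, so the HIST1H2AC and HIST1H2BC windows overlap and hold the same octamer read on opposite strands. The only TATAAA in the HIST1H2BC window, at base -220, is likewise the TATA box of HIST1H2AC. The HIST1H2AJ promoter, of the member with the lowest ratio, holds the same 3 kinds of element as HIST1H2AC, the member with the highest: a TATA box at base -31 from the start in both, CCAAT boxes and an octamer. The octamer of the HIST1H2AJ window, at base -204, is also that of the facing gene HIST1H2BM, at base -48 from its own start. HIST1H4E held none of the 3 sequences, and of the 3 HIST1H4I and HIST1H3G held CCAAT only. Only exact letters were searched, so TATA-like variants, as in the HIST1H3G, HIST1H4E and HIST1H2BC windows, were not marked.

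Among the 57 members with a promoter entry, CCAAT was present in 47 (82.5%), against 35.7% of all 27305 promoters of the same length. A match anywhere in the window on either strand was counted, so elements of a facing gene are included. TATAAA was present in 38 (66.7%), against 12.0% of all promoters. The octamer ATTTGCAT was present in 22 (38.6%), against 1.80%, and all 22 were H2A or H2B genes (10 of 14 and 12 of 16). The E-box CACGTG, a sequence that MYC with its partner MAX can bind, was in 0 of the 57, against 7.43% of all promoters; that says only that these letters were not in the window. The members that were 2-fold or more above control with the knockdown in PBS held TATAAA in 5 of 9, CCAAT in 7 of 9 and the octamer in 4 of 9. Those 2-fold or more below control held them in 5, 9 and 4 of the 10 with an entry.

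The whole series sets these limits on the histone values. The shRNA target MYC stood at 1867, 1650, 17.1 and 625 FPKM, so the knockdown library in DMS held 0.379 times the MYC mRNA of its control and far more than the knockdown library in PBS. DMS and the retained MYC therefore cannot be told apart in the knockdown cells. The sequencing depth is not given. The lowest deposited values above 0 among members with a short locus of their own were 0.161 to 0.216 FPKM per library, and if each of these was 1 fragment, 1 FPKM of such a gene stands for 4.63 to 6.22 fragments. The tested members had a median level of 5.87 FPKM, against 12.3 FPKM over all tested genes, so many of the ratios below rest on few fragments. The part of that in the number of large ratios was not tested. B cell markers were present in all libraries (CD74 2749 FPKM in the control in PBS). Of 9 listed, 7 were tested, and all 7 rose in the knockdown by limma, against 27.8% of all genes. BCL6, at 0.160, 0.156, 0.346 and 0.426 FPKM, was under the filter, and CD79B was not found under its own name. The summed level of the B cell markers was 4230, 2758, 13061 and 7505 FPKM. Of 8 myeloid markers 2 were at 0 in the control in PBS, and their sum was 124, 88.3, 248 and 184 FPKM; 3 of the 4 tested (LYZ, ITGAM and CD68) rose. The fourth, AIF1, was the most abundant, at 97.8, 76.2, 74.3 and 77.0 FPKM, and did not pass the limma test (adjusted p = 0.443). T cell markers summed to 14.5, 11.5, 17.7 and 14.4 FPKM, and 2 of the 4 tested (CD2 and CD7) rose, while CD3E, the highest of them in the control in PBS at 8.22 FPKM, did not pass (limma adjusted p = 0.233). Epithelial or packaging cell markers summed to 280, 337, 25.2 and 145 FPKM, of which nearly all was the tubulin gene TUBB3. The part of these shifts in the histone values was not tested.

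Summed over all 65 members, histone mRNA was 529, 464, 788 and 664 FPKM, 1.49 times the control in the knockdown in PBS and 1.43 times in DMS. The classes differed in direction, as the plot of summed levels shows. H1 was 46.1, 42.3, 98.2 and 86.8 FPKM (ratios 2.13 in PBS and 2.05 in DMS), and H2B was 224, 188, 417 and 325 FPKM (1.86 and 1.73). H3 was 25.6, 20.2, 10.7 and 12.2 FPKM (0.420 and 0.604), a sum that leaves out the joint rows with an H3 gene given below. The joint row of HIST1H2AI and HIST1H3H alone exceeded that sum in each library, at 26.1, 27.8, 31.5 and 29.3 FPKM. The direction of all H3 mRNA is therefore not known. In H1 and H2B both knockdown libraries lay above both controls, and in H3 both lay below. H2A differed little in sum, at 174, 159, 206 and 188 FPKM (1.18 and 1.18), though its knockdown libraries also lay above both controls. H4 differed less, at 58.7, 54.7, 55.7 and 52.1 FPKM (0.950 and 0.952), and its groups overlapped. These sums have no replicate check. In bulk RNA, fewer cells that make a transcript and less transcript per cell cannot be told apart.

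**Figure D1:**
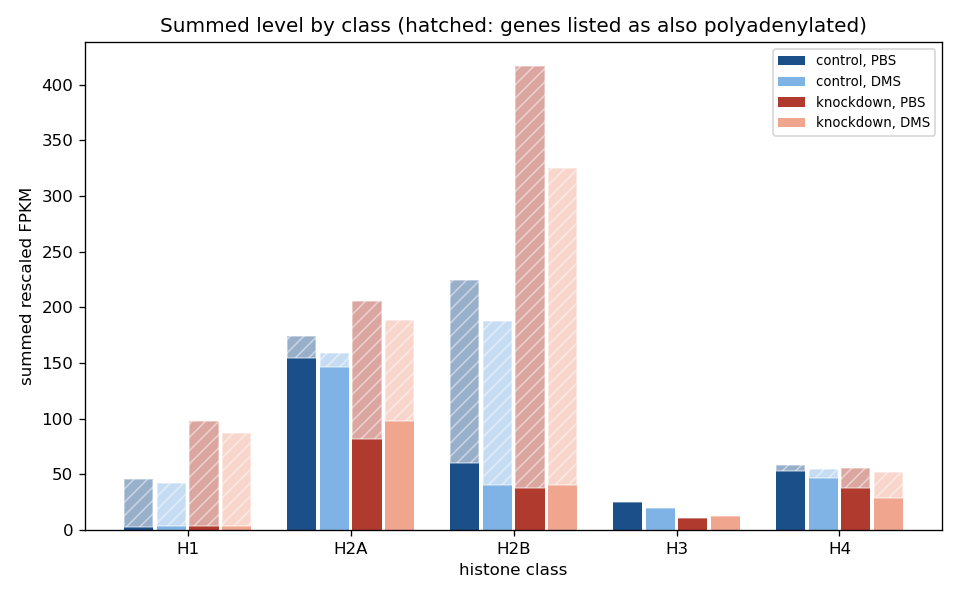
Summed rescaled FPKM (y axis) of the members of each histone class (x axis), 1 bar per library, with the hatched portion from genes listed as also polyadenylated. H1 and H2B reach 98.2 and 417 FPKM in the knockdown in PBS, against 46.1 and 224 in its control, while H3 stands at 10.7 against 25.6. Joint rows of 2 genes, among them rows with an H3 gene, are not in the bars.

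Most class sums were carried by few genes. HIST1H1C made up 94.8% of H1 mRNA in the control in PBS, and HIST1H2BK made up 55.6% of H2B there and 64.5% in the knockdown. HIST3H2A was 36.4% of H2A in the control and 14.3% in the knockdown in PBS. HIST1H4I was 38.6% of H4 in the control and 5.33% in the knockdown in PBS. Members listed as also giving polyadenylated mRNA were taken from general knowledge and not checked against these files. The list was chosen with earlier results of these data known. Of the 9 genes on it, 8 were found under a single name, and the remaining gene has no value here. The 8 were HIST1H1C, HIST1H2AC, HIST1H2BC, HIST1H2BD, HIST1H2BJ, HIST1H2BK, HIST2H2BE and HIST1H4H. They summed to 234, 207, 616 and 481 FPKM (ratios 2.63 and 2.33), whereas the 57 other members summed to 295, 258, 172 and 183 FPKM (0.581 and 0.711). The sums of the listed genes and of the others thus lay on opposite sides of control. Without HIST1H2AC the H2A sum was 155, 146, 81.3 and 98.3 FPKM (0.526 and 0.671), below control in both media. The labels do not say whether polyadenylated RNA was selected or ribosomal RNA removed before library construction, and the part of that choice in these levels was not tested.

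The first comparison asked what the MYC knockdown did to histone mRNAs in PBS. A member counted as higher or lower where its difference in log2(FPKM + 1) between the 2 libraries reached 1 in size, or 2-fold on that scale, which understates changes of low genes. Of the 38 members, 9 were higher (23.7%), against 14.4% of all 11177 genes, and 13 were lower (34.2%), against 17.0% of all genes. Their median log2 ratio was 0.01, with a range from -2.99 to 2.59, and the median of all genes was -0.01. In DMS, 8 members were higher (21.1%), against 9.64% of all genes, and 7 were lower (18.4%), against 3.57%, with a median of 0.05 beside -0.01. In the FPKM as deposited, the split of all genes in DMS was 910 higher and 677 lower, in place of 1078 and 399, and that of the members was 6 and 10. The median of all genes was then -0.13 in PBS and -0.10 in DMS. Higher in both media were 7 members (18.4%, against 9.31% of all genes), and 5 were lower in both (13.2%, against 3.50%). The ratio had the same sign in both media for 34 of 38 members (89.5%), close to the 91.9% of all genes.

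The pooled limma fit, with virus and medium as additive terms over the 4 libraries, was the test for the knockdown. By limma with Benjamini-Hochberg adjustment over all genes, 12 of 38 members rose (31.6%), against 27.8% of all genes, and 17 fell (44.7%), against 27.8%. In the FPKM as deposited 11 members rose and 17 fell, beside 2604 and 3620 of 11169 genes. With no filter on low values, 13 of 52 members rose and 13 fell, beside 2768 and 1496 of 16573 genes. Both knockdown libraries lay above both control libraries for 13 members (34.2%, against 42.2% of all genes) and below both for 17 (44.7%, against 41.9%), and the groups overlapped for 8. The fit has 1 residual degree of freedom, which is the difference between the knockdown change in PBS and that in DMS. Spread within a group does not enter it, since each group holds 1 library, and a true difference between media counts as error. A further 5.22 prior degrees of freedom are borrowed from all genes. Nothing in the labels says whether separate cultures were used. The p-values therefore describe no more than how alike the change was in PBS and DMS in these 4 libraries, beside other genes. With the medium term left out, leaving out the control library in PBS or the one in DMS ended every call, of members and of all genes. Either fit leaves 1 control library.

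**Figure D2:**
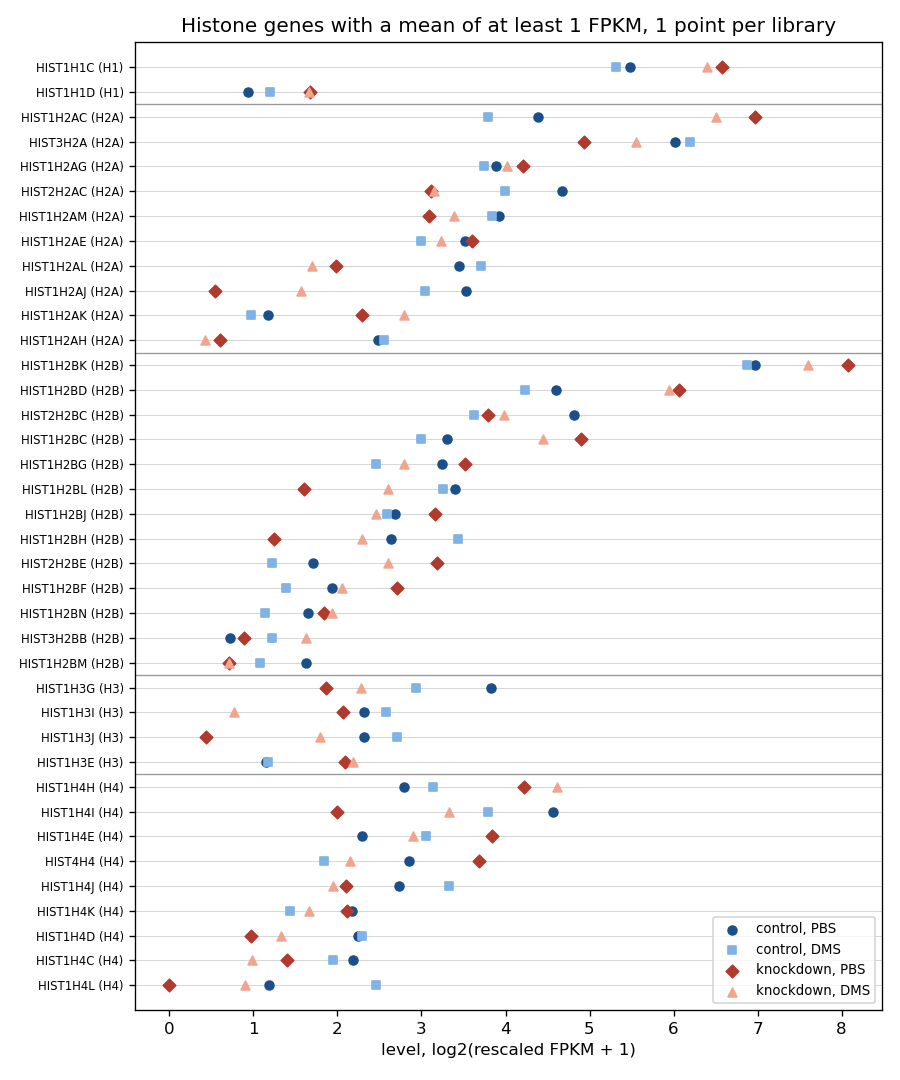
Level of each tested histone gene as log2(rescaled FPKM + 1) (x axis), 1 point per library and 1 row per gene. HIST1H2AC and HIST1H2BK lie to the right of their controls in both knockdown libraries, and HIST1H2AJ and HIST1H4I to the left.

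Of the H1 genes, which bind linker DNA, 2 of 6 were tested and both rose. HIST1H1C (chr6:26055967-26056699, hg19), the main linker histone gene expressed here, was 43.7, 38.8, 94.3 and 83.3 FPKM. Both knockdown libraries were high and the groups did not overlap. The limma log2 fold change was 1.09 (SE 0.18, adjusted p = 0.00553). HIST1H1D, a second linker gene, was low at 0.906, 1.30, 2.20 and 2.16 FPKM and rose by 0.60 on the log2 scale (limma adjusted p = 0.0194). HIST1H1B and HIST1H1E stayed under the filter, at 0.474 to 1.13 and 0.453 to 1.29 FPKM. HIST1H1T, the testis linker histone gene, reached at most 0.0759 FPKM, and HIST1H1A was listed at 0 in every library.

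Of the H2A genes 10 of 16 were tested, and by limma 2 rose and 6 fell. HIST1H2AC (chr6:26124362-26139933, hg19), whose promoter is shown above, was 19.9, 12.8, 125 and 90.1 FPKM. It was the highest ratio of any tested member in both media, 6.25-fold higher in PBS and 7.02-fold higher in DMS. The limma log2 fold change was 2.65 (SE 0.18, adjusted p = 0.000597). HIST3H2A (chr1:228645064-228645560, hg19), the most abundant H2A gene of the control cells, was 63.6, 72.2, 29.5 and 46.0 FPKM. Both knockdown libraries were lower, and the one in DMS less so. Its limma log2 fold change was -0.86 (SE 0.20, adjusted p = 0.0123), and it was -0.55 without the knockdown library in PBS in a fit with no medium term.

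The lowest ratio among the tested members in PBS belonged to HIST1H2AJ (chr6:27781416-27782541, hg19), at 10.5, 7.23, 0.458 and 1.95 FPKM. It was 23.0-fold lower in PBS and 3.70-fold lower in DMS, with a limma log2 fold change of -2.23 (SE 0.33, adjusted p = 0.00444). The knockdown libraries therefore held only a few fragments of this gene if the estimate above holds for it. HIST1H2AL was 9.90, 12.1, 2.95 and 2.24 FPKM, with the knockdown libraries low in both media (limma log2 fold change -1.74, SE 0.18, adjusted p = 0.00126). HIST2H2AC was 24.6, 14.9, 7.64 and 7.86 FPKM, so that the control in DMS lay nearer to the knockdown than the control in PBS did (limma -1.21, SE 0.21, adjusted p = 0.00615). HIST1H2AM fell less, from 14.1 and 13.3 FPKM to 7.53 and 9.43 (limma adjusted p = 0.0177). HIST1H2AG, at 13.8, 12.4, 17.5 and 15.2 FPKM, did not pass the test (limma adjusted p = 0.141), and neither did HIST1H2AE, at 10.5, 6.99, 11.1 and 8.38 FPKM (limma adjusted p = 0.400). Below a mean of 5 FPKM, and chosen after their values were seen, HIST1H2AH fell from 4.59 and 4.86 to 0.519 and 0.346 FPKM and HIST1H2AK rose from 1.26 and 0.959 to 3.92 and 5.93 FPKM.

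Of the H2B genes 13 of 18 were tested, and by limma 5 rose and 3 fell. HIST1H2BK (chr6:27106071-27114637, hg19, a locus shared in the tables with HIST1H4I) was the most abundant member of any class, at 125, 116, 269 and 193 FPKM. Both knockdown libraries were high, and the limma log2 fold change was 0.92 (SE 0.19, adjusted p = 0.00942). HIST1H2BD was 23.2, 17.7, 65.7 and 60.7 FPKM, with no overlap between groups (limma 1.59, SE 0.18, adjusted p = 0.00177). Its locus holds 4 gene names, as does that of HIST1H2BC, and 26 of the 38 tested members were alone in their locus. HIST1H2BC, which faces HIST1H2AC across the promoter region shown, was 8.85, 6.94, 28.9 and 20.9 FPKM. It too was higher in both knockdown libraries, by 1.53 on the log2 scale in limma (SE 0.15, adjusted p = 0.00121). HIST2H2BE, under a mean of 5 FPKM and named because it is on the polyadenylated list, was 2.26, 1.34, 8.09 and 5.05 FPKM (limma 1.43, SE 0.14, adjusted p = 0.00116). HIST1H2BJ, also on that list, was 5.44, 5.01, 7.96 and 4.49 FPKM and did not pass the test (limma adjusted p = 0.446).

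The 3 H2B genes that fell were HIST1H2BH, HIST1H2BL and HIST1H2BM. HIST1H2BH was 5.21, 9.85, 1.36 and 3.91 FPKM (limma -1.27, SE 0.15, adjusted p = 0.00198). HIST1H2BL was 9.57, 8.52, 2.03 and 5.07 FPKM (limma -1.23, SE 0.27, adjusted p = 0.0106). In both of these the knockdown in PBS was the lowest library and the knockdown in DMS lay between it and the controls. Without the knockdown library in PBS, in a fit with no medium term, the changes were -0.74 for HIST1H2BH, which then lost its call, and -0.73 for HIST1H2BL. HIST2H2BC, typed as a pseudogene, was 27.2, 11.4, 12.9 and 14.8 FPKM: the control in PBS alone was high, and it did not pass the test (limma adjusted p = 0.397). HIST1H2BG was 8.44, 4.50, 10.4 and 5.95 FPKM and differed more by medium than by virus (limma knockdown adjusted p = 0.105). To complete the class, HIST1H2BM fell from 2.09 and 1.11 FPKM to 0.635 and 0.635, and HIST1H2BF rose from 2.82 and 1.61 FPKM to 5.55 and 3.14. HIST1H2BN and HIST3H2BB, between 0.647 and 2.81 FPKM in every library, did not pass the limma test (adjusted p = 0.0652 and 0.163).

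By single-name rows, H3 genes were the least expressed class and 4 of 10 were tested, of which 1 rose and 3 fell by limma. Joint rows with an H3 gene lie outside this count. That of HIST1H2AI and HIST1H3H was 26.1, 27.8, 31.5 and 29.3 FPKM. That of HIST2H2BF and HIST2H3D was 10.9, 8.02, 8.48 and 6.69 FPKM. The joint row of HIST1H2AD and HIST1H3D is given at the end. HIST1H3G (chr6:26264987-26272886, hg19) was 13.2, 6.67, 2.65 and 3.85 FPKM, with the control in PBS high and the other libraries below it. Its limma log2 fold change was -1.31 (SE 0.30, adjusted p = 0.0116). HIST1H3J fell from 3.97 and 5.55 FPKM to 0.352 and 2.46 (limma adjusted p = 0.00605). HIST1H3I was 3.99, 4.96, 3.18 and 0.706 FPKM, so that its difference in PBS was small and that in DMS carried the fit (limma adjusted p = 0.0421). HIST1H3E was the H3 gene that rose, from 1.22 and 1.26 to 3.26 and 3.56 FPKM (limma 0.98, SE 0.14, adjusted p = 0.00439). In fits with no medium term, HIST1H3J was at -0.72 without the knockdown library in PBS. HIST1H3I was at -1.68 without that library and at -0.38, with no call, without the knockdown library in DMS. HIST1H3G was at -0.87, with no call, without the control library in PBS. The remaining H3 genes were under the filter or at 0.

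Of the H4 genes 9 of 15 were tested, and by limma 2 rose and 5 fell. HIST1H4H, whose 2 rows were summed, was 5.95, 7.83, 17.6 and 23.4 FPKM, with both knockdown libraries high (limma 1.44, SE 0.15, adjusted p = 0.00130). HIST1H4I, the most abundant H4 gene of the control cells, was 22.6, 12.9, 2.97 and 9.02 FPKM. It was lowest in the knockdown in PBS, and the log2 ratio was -2.57 in PBS and -0.47 in DMS. The limma log2 fold change was -1.52 (SE 0.45, adjusted p = 0.0280), and without the knockdown library in PBS, with no medium term, it was -0.86 and lost its call. HIST1H4J was 5.67, 9.06, 3.30 and 2.85 FPKM (limma -1.01, SE 0.20, adjusted p = 0.00852). HIST1H4E was 3.91, 7.30, 13.3 and 6.46 FPKM: the knockdown in PBS alone was high, its log2 ratio was 1.54 in PBS and -0.15 in DMS, and it did not pass the test (limma adjusted p = 0.152). HIST4H4, the single member on chromosome 12, was 6.21, 2.58, 11.8 and 3.43 FPKM, and the groups overlapped. It rose by 0.57 in limma (SE 0.17, adjusted p = 0.0318), but in fits with no medium term that leave out 1 library the change ran from -0.20, without the knockdown in PBS, to 1.34, without the knockdown in DMS. It was 1.08 without the control in PBS and 0.07 without the control in DMS. To complete the class, HIST1H4D fell from 3.75 and 3.91 FPKM to 0.957 and 1.52, and HIST1H4C fell from 3.56 and 2.85 FPKM to 1.63 and 0.982. HIST1H4L, at 1.28 and 4.49 FPKM in the controls, was listed at 0 in the knockdown in PBS and was 0.862 FPKM in DMS. HIST1H4K, at 3.49, 1.70, 3.33 and 2.16 FPKM, did not pass the limma test (adjusted p = 0.652).

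**Figure D3:**
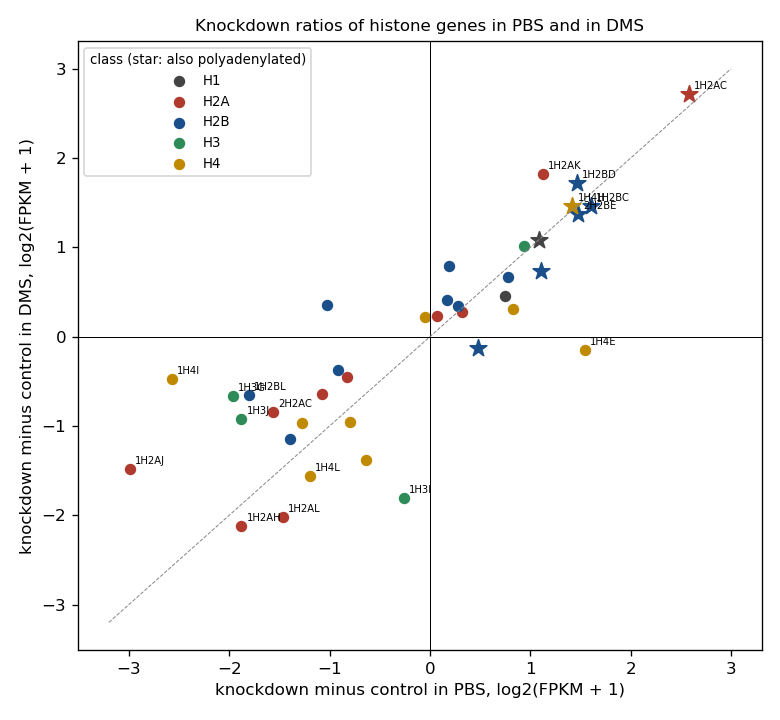
Difference in log2(FPKM + 1) between knockdown and control in DMS (y axis) against the same in PBS (x axis), 1 point per tested histone gene, coloured by class with stars for genes listed as also polyadenylated. HIST1H2AC stands at 2.59 and 2.72, and HIST1H2AJ at -2.99 and -1.48.

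The polyadenylated list was set beside the other members class by class. Since that list was chosen with earlier results of these data known, the contrast is a description and no independent check. Without the listed genes, the summed H2A level was 0.526 times control in PBS and 0.671 in DMS, and that of H4 was 0.723 and 0.612. The unlisted H2B genes were at 0.626 in PBS and 0.998 in DMS, and the unlisted H1 genes, which were low, at 1.62 and 0.998. HIST2H2BC, typed as a pseudogene, made up 45.4% of the unlisted H2B sum in the control in PBS and was its most abundant gene there. H3 holds no listed gene. Of the 8 listed genes 7 rose and 0 fell by limma, all 8 with a fitted change above 0, and their median log2 ratio was 1.44 in PBS and 1.42 in DMS. Of the 30 other tested members 5 rose and 17 fell, with medians of -0.81 and -0.46. In PBS 7 listed genes passed 2-fold upward and 0 downward, against 2 higher and 13 lower among the others. Gene length was grouped after the values were seen, and it largely picks out the same genes: RefSeq spans over 1000 bases occur in 6 of the 62 coding members, and 5 of those were tested. These are HIST1H2BK (8566 bases), HIST1H2BD (13229), HIST1H2BC (10757), HIST2H2BE (2224) and HIST1H3E (3296), which all rose, and 4 of the 5, all but HIST1H3E, are on the polyadenylated list. The remaining gene over 1000 bases, HIST2H4B, was listed at 0, and the other coding members span 386 to 797 bases in RefSeq. The deposited hg19 loci are longer for some of these, among them HIST1H2AC (26124362 to 26139933), which rose. HIST1H3G (26264987 to 26272886), which fell, is another, so the grouping holds for RefSeq spans only.

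Position in the cluster was followed along chromosome 6, where the tested members form 2 blocks. The first runs from HIST1H1C at 26055967 to HIST1H4H at 26296907 (hg19) and the second from HIST1H2BJ at 27100094 to HIST1H2AM at 27860963. Of all genes, 27.8% rose and 27.8% fell by limma. In the first block, 15 of 33 members were tested, 8 rose and 4 fell, and the median ratio in PBS was 0.78. In the second block 17 of 18 were tested, 2 rose and 11 fell, and the median was -0.83. Of 13 members on chromosome 1, 5 were tested, and in PBS 1 was at least 2-fold higher and 3 lower. The difference between the blocks was not tested, and 5 of the 8 polyadenylated-list genes lie in the first block. Within a block, neighbours of opposite direction stood next to each other, as the plot in map order shows.

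**Figure D4:**
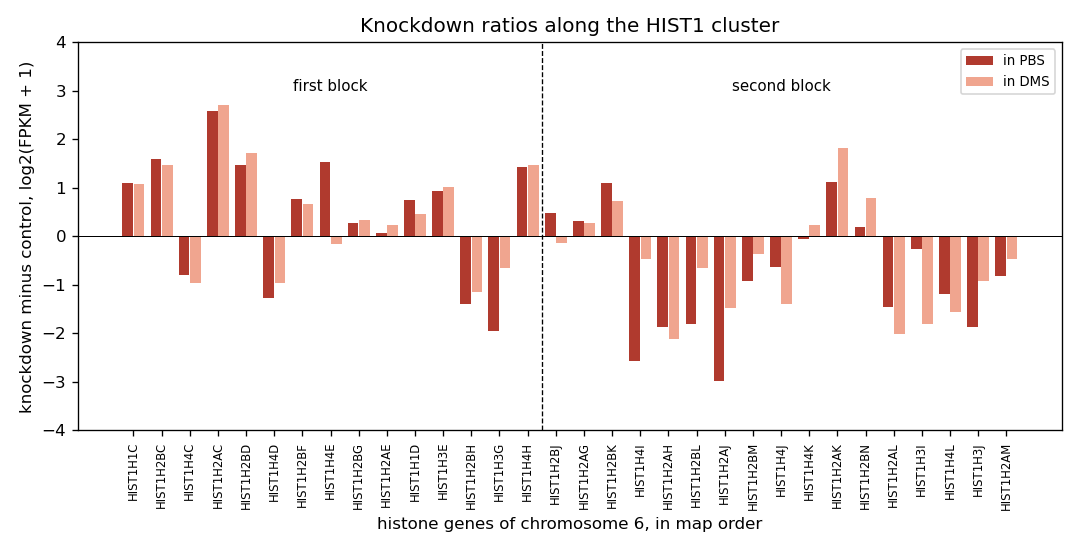
Difference in log2(FPKM + 1) between knockdown and control (y axis) for tested histone genes of chromosome 6 ordered by locus start (x axis), 1 bar per medium. HIST1H2AC (2.59 in PBS) lies in the first block and HIST1H2AJ (-2.99 in PBS) in the second.

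Histone genes often lie head to head, and 9 such pairs with start sites within 1000 bases were found, of which 7 had both members tested. The ratio in PBS had the same sign in 5 of the 7 pairs and the ratio in DMS in 4, and no like count was made over pairs of other genes. HIST1H2BC and HIST1H2AC, 246 bases apart, had log2 ratios of 1.60 and 2.59 in PBS. HIST1H2AJ and HIST1H2BM, 245 bases apart, had -2.99 and -0.92. HIST2H2BE and HIST2H2AC, 236 bases apart on chromosome 1, were the 1 pair with 2-fold differences in opposite directions, at 1.48 and -1.57. HIST3H2A and HIST3H2BB, 230 bases apart, had -1.08 and 0.17.

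The second comparison asked what DMS did in each virus. In the control, 1 of 38 members was at least 2-fold higher (2.63%, against 0.0805% of all genes), HIST1H4L at a log2 ratio of 1.26, and 2 were lower (5.26%, against 0.403%), HIST2H2BC at -1.19 and HIST4H4 at -1.01. In the knockdown, 5 were higher (13.2%, against 4.97% of all genes) and 2 were lower (5.26%, against 0.456%). The higher ones were HIST1H3J (1.36), HIST1H4I (1.34), HIST1H2BH (1.06), HIST1H2AJ (1.02) and HIST1H2BL (1.00). The lower ones were HIST4H4 (-1.53) and HIST1H3I (-1.29). Median log2 ratios of the members were -0.16 in the control and -0.06 in the knockdown, beside -0.04 and 0.00 over all genes. By limma, DMS over both viruses gave 0 members that rose and 0 that fell, as for all genes (0.0% each way), while 13 of the 38 members and 1445 genes had an unadjusted p under 0.05. The knockdown library in DMS also held more MYC mRNA than the one in PBS, as given above.

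Genes that process histone mRNA and that package new histones were read from lists beside the members. The limma calls over all genes, 27.8% in each direction, apply to these lists too. Of 22 genes for the processing and decay of histone mRNA, 2 rose and 10 fell by limma, with a median log2 ratio in PBS of -0.44. SLBP, the stem-loop binding protein, was 79.1, 68.1, 22.3 and 36.6 FPKM (limma -1.33, SE 0.25, adjusted p = 0.00726). NPAT, the coactivator that links cyclin E to histone transcription, was 2.46, 1.91, 4.12 and 2.72 FPKM (limma 0.46, SE 0.15, adjusted p = 0.0379). XRN1, a 5′ to 3′ exonuclease, rose by 1.45, and the Sm protein genes SNRPF and SNRPE, whose products also serve spliceosomal particles, fell by 1.67 and 1.27. CASP8AP2, a histone locus body gene, was 1.03 to 1.72 FPKM and did not pass (limma adjusted p = 0.0782). Of 19 histone chaperone genes 1 rose and 10 fell (median -0.67 in PBS). Among them were CHAF1A of chromatin assembly factor 1, which fell by 1.33, and TONSL and SSRP1, which fell by 1.52 and 1.37, while ATRX rose by 0.86. CABIN1 and DAXX, the next highest ratios in PBS at 0.64 and 0.16, did not pass (limma adjusted p = 0.0639 and 0.454).

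Most genes of S phase and DNA replication fell. Of 30 such genes 0 rose and 28 fell by limma, all with a fitted change below 0 and with a median log2 ratio of -1.41 in PBS and -0.94 in DMS. The clamp loader subunit RFC3 was 48.6, 37.3, 9.14 and 17.7 FPKM. The helicase subunit MCM4 was 112, 97.4, 25.2 and 46.3 FPKM, and CDC45, which joins that helicase, was 31.3, 25.6, 6.55 and 11.6 FPKM. In these 3 genes, the lowest ratios of the list in PBS, the knockdown library in PBS was lowest. At the other end, the cyclin E gene CCNE1 was 5.92, 5.08, 4.83 and 2.90 FPKM and did not pass the limma test (adjusted p = 0.0539). Nor did its kinase CDK2, at 35.2, 33.0, 27.3 and 28.2 FPKM (limma adjusted p = 0.197). The second cyclin E gene, CCNE2, fell by 0.43 (limma adjusted p = 0.0444). The part of cell cycle position in the histone values was not tested, since no measure of it other than mRNA was at hand.

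The variant histones are also made outside S phase, most of them from polyadenylated mRNA. They were split as well: of 10 tested of 12, 2 rose and 4 fell by limma, and the median in PBS was -0.22. H1F0, a linker variant of non-dividing cells, was 1.58, 2.28, 9.94 and 10.1 FPKM (limma 1.92, SE 0.15, adjusted p = 0.000708). H1FX, a further linker variant, was 147, 178, 361 and 312 FPKM (limma 1.05, SE 0.20, adjusted p = 0.00740). H2AFZ, the gene of H2A.Z, was 568, 547, 119 and 273 FPKM (limma -1.62, SE 0.30, adjusted p = 0.00707). H2AFX and CENPA, the latter the H3 variant of centromeres, fell by 1.19 and 1.10. H3F3B, a gene of the H3.3 variant, was 147, 129, 157 and 146 FPKM and did not pass the test (limma adjusted p = 0.547).

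**Figure D5:**
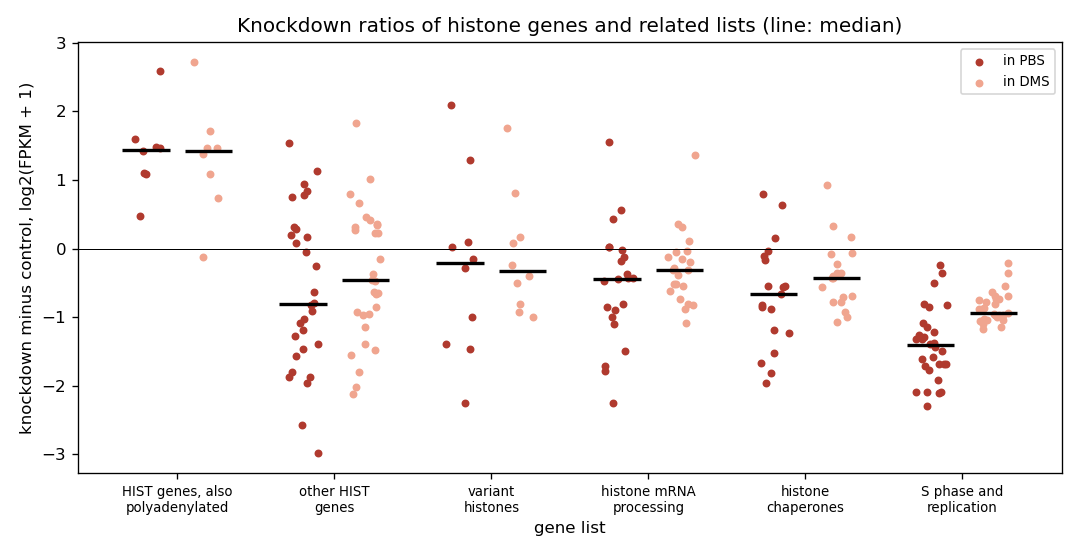
Difference in log2(FPKM + 1) between knockdown and control (y axis) for the tested histone genes and the related lists (x axis), 1 point per gene and medium, with a line at each median. In PBS the median is -1.41 for the S phase genes and 1.44 for the members listed as also polyadenylated.

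The members not tested were few in fragments or absent. The 14 detected below a mean of 1 FPKM reached at most 1.80 FPKM in a single library. The 13 listed at 0 were HIST1H1A, HIST1H2AA, HIST1H2APS1, HIST2H2AA3, HIST2H2AA4, HIST1H2BA, HIST1H2BB, HIST2H2BA, HIST2H3A, HIST1H4F, HIST1H4G, HIST2H4A and HIST2H4B. Among these are the near-identical copies HIST2H2AA3 with HIST2H2AA4 and HIST2H4A with HIST2H4B, for which a value of 0 may be a matter of how the authors assigned fragments with several places to map, so it is no measure of their transcripts. The strand setting is not given in the sources used here, and coding sequences within a class are alike, so every member's value may hold fragments of a related or an overlapping copy.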

How the data were processed

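The tables the authors deposited for the 4 RNA libraries hold 1 column of FPKM for 31016 rows. The unit was read from the values and the column name. Per the submitters' processing notes the tools included TopHat2 2.1.0 and Cuffdiff 2.2.1, with builds hg19 and, for a spike-in, dm6. These notes assign no role to any tool, and the gene annotation and any scaling between libraries were not given in the sources used here. Per the labels' protocols, RNA came from a TRIZOL extraction and the library kit was NEBNext Ultra RNA. The 4 ChIP-seq samples and 1 input sample were not analysed here.

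Rows with no gene name (3919 rows, 15.7%, 14.3%, 25.2% and 22.4% of summed FPKM in the order of the report) and 1980 small RNA symbols were left out, 30 rows named by a date were never named, and rows of 1 symbol were summed. Joint rows of 2 genes (4 rows with a histone gene) were not members. The 4 libraries were brought to 1 scale with trimmed means of their log2 ratios (30% of ratios and 5% of levels trimmed, factors 1.05, 1.04, 0.953 and 0.962), and genes whose mean reached 1 FPKM were kept.

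Since each group holds 1 library, single comparisons of libraries have no test. The test was limma 3.58.1 (R 4.3.3) with an intensity trend on log2(FPKM + 1), additive in virus and medium, with 1 residual and 5.22 prior degrees of freedom, and Benjamini-Hochberg adjustment over all genes at 0.05. Alternatives were the FPKM as deposited, upper quartile scaling, a pseudocount of 0.1, filters of 0 and 5 FPKM, no second term, each library left out, and the highest row of a symbol.

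Named members were, in each class, the 4 most abundant, and among those with a mean of at least 5 FPKM the 5 highest and 5 lowest knockdown ratios in each medium, the 3 highest and 3 lowest DMS ratios, and every limma call. From the related lists the 3 highest and 3 lowest ratios in PBS were named, and from marker lists the highest gene. Members outside these are named where the text says so, where a count or a pair holds few genes, or to close a list. The members and lists were chosen with earlier results of these data known. Promoters and gene types are from RefSeq (GRCh38.p14), in which all 65 members matched; no coordinates of it were mixed with hg19.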

Additional observations from a re-analysis of the deposited data

Results flagged for a closer look

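HIST1H4I responded to DMS in opposite directions in the 2 viruses: its log2 ratio of DMS to PBS was -0.77 in the control and 1.34 in the knockdown. HIST1H4E did so the other way round, at 0.76 in the control and -0.94 in the knockdown. With 1 library per group these differences between viruses were not tested, and HIST1H4I shares its locus in the tables with HIST1H2BK.

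Rows that join 2 genes were outside the counts of members, and 2 of them held differences of at least 2-fold between knockdown and control. The joint row of HIST1H2AD and HIST1H3D was 6.84, 2.61, 21.3 and 14.8 FPKM, in the order control in PBS, control in DMS, knockdown in PBS, knockdown in DMS. Its log2 ratio was 1.51 in PBS and 2.13 in DMS. The joint row of HIST1H2BO and OR2B6 was 3.50, 0.818, 1.98 and 3.60 FPKM, with a log2 ratio of 1.34 in DMS. Which gene of a joint row the fragments came from cannot be told apart.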

How the results depend on the processing

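Counts of members moved by over 1.5 times under few settings. With a filter at a mean of 5 FPKM, 5 members were higher and 4 lower in the knockdown in DMS (8 and 7 as reported), 0 were higher with DMS in the control (1 as reported) and 1 lower with DMS in the knockdown (2 as reported); fewer genes were tested there. With upper quartile scaling 1 member was lower with DMS in the control (2 as reported). Counting only the 26 members alone in their locus, a choice made after seeing the data, 5 were higher in PBS (9 as reported) and 4 in DMS (8 as reported), from fewer members. In limma with the second term left out, 10 members rose and 11 fell (12 and 17 as reported). Of all 11177 genes, 2601 rose and 2256 fell there (3111 and 3110 as reported). Leaving out each library as well leaves 1 library of a virus, so those fits are read by fitted change. Every call, of members and of all genes, was lost without the control library in PBS or in DMS. HIST4H4 turned to -0.20 without the knockdown library in PBS, and the report gives the 7 other named members whose fitted change moved by over 1.5 times. In the FPKM as deposited, the ratio of knockdown to control in PBS was 1.93 for H1, 1.07 for H2A, 1.68 for H2B, 0.380 for H3 and 0.861 for H4, each on the same side of 1 as reported. Joint rows could not be added to a class, since 0 of them held genes of 1 class. Each group holds 1 library, so the only blocked comparison is the reported fit, which sets the viruses against each other within each medium. The unknown depth limits members of low FPKM most.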
